A study of Homo sapiens with 6 samples.

Results

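The genes described here are 42 RNA sensors, interferon signalling genes and interferon-stimulated genes, chosen by name, and 41 of them were found among the 32434 gene IDs of the deposited expression table. OASL had no row and was not analysed here. The table compares SK-N-BE(2) cells, a human neuroblastoma line, carrying a lentiviral hairpin against MYT1 (shMYT1, 3 libraries) with the same line carrying a control hairpin (shNC, 3 libraries). Infection lasted 24 h and puromycin selection 48 h, no interferon treatment is named for either group, and the genotype field says knockout where the protocol describes a knockdown. Only 1 line and 1 hairpin label per group were used, and the labels do not state whether replicates came from separate cultures. P-values therefore reflect how far these libraries spread, which may be technical.

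Double-stranded or otherwise foreign RNA in the cytosol is recognised by sensors of the RIG-I family, by the kinase PKR and by the oligoadenylate synthetases. Sensor signalling activates the transcription factor IRF3 and induces type I interferon, which binds the receptor chains IFNAR1 and IFNAR2 and, through JAK kinases, assembles STAT2 and IRF9 into a factor that binds interferon-stimulated response elements (ISREs) in promoters. The genes switched on in this way encode most of the sensors again, together with effectors that block viral entry, translation or budding. Neuroblastoma cells are known for low expression of antigen presentation genes, which interferon also induces.

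The promoters of the genes were searched for the element through which interferon acts on them. Promoter windows of 300 bases (250 before and 50 from the start site on) were in the RefSeq table (GRCh38.p14) for 31 of the 42 genes. The ISRE core, searched on both strands as GAAA, any 2 bases and GAAA again, stood in a window of 23 of the 31 genes (74.2%), against 4.38% of the 27305 genes in the table. The GAS core TTCNNNGAA, the letters bound by STAT dimers and the same on both strands, stood in 10 of the 31 (32.3%), against 9.38% of all genes. The genes were chosen by name for their link to interferon. Higher shares of such elements can follow from that choice and are not a result of the knockdown data. The windows that the results below turn on are printed 5′ to 3′ on the gene's strand, with matches to the ISRE core in capitals.

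OAS1, OAS3, BST2, IFI6 and PARP14 are shown because they rose, EIF2AK2 because it fell, and ISG15 because it did not pass the test while its window holds the core. The windows are chr12:112906712-112907011 (plus strand) for OAS1, chr12:112938224-112938523 (plus strand) for OAS3, chr19:17405581-17405880 (minus strand) for BST2, chr1:27672143-27672442 (minus strand) for IFI6, chr3:122680589-122680888 (plus strand) for PARP14, chr2:37156931-37157230 (minus strand) for EIF2AK2 and chr1:1013247-1013546 (plus strand) for ISG15.
OAS1: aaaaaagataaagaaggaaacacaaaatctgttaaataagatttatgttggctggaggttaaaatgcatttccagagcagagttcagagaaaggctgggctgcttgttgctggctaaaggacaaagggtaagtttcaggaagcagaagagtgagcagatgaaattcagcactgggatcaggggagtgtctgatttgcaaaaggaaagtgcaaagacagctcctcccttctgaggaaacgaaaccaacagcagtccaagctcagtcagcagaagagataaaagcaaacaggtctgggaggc
OAS3: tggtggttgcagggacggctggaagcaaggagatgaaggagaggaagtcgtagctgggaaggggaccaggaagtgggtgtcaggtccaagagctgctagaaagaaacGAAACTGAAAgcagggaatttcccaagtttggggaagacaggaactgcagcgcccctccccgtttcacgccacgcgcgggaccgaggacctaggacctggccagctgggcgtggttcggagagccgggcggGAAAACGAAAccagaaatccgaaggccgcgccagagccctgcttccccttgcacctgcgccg
BST2: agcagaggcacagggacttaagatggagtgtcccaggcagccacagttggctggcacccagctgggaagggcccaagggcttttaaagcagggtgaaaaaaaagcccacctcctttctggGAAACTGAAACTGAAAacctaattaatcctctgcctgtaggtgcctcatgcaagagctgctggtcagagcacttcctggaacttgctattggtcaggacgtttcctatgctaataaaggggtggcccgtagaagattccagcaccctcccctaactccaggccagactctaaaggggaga
IFI6: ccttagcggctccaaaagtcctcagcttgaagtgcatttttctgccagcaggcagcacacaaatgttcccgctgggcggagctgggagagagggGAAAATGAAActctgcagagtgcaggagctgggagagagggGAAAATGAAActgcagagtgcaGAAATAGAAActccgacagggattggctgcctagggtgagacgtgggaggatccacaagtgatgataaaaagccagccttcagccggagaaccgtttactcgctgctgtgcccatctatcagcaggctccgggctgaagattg
PARP14: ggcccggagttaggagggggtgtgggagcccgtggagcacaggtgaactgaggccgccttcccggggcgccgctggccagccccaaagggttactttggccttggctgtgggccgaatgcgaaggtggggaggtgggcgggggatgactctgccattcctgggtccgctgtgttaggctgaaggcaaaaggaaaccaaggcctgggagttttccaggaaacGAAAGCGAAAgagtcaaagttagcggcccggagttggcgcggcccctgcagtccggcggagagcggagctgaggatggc
EIF2AK2: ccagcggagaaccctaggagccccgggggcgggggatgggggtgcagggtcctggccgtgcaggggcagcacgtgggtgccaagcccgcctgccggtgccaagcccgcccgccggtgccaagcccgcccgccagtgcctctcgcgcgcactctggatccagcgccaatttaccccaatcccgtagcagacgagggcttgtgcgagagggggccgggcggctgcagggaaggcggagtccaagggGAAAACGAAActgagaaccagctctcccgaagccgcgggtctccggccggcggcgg
ISG15: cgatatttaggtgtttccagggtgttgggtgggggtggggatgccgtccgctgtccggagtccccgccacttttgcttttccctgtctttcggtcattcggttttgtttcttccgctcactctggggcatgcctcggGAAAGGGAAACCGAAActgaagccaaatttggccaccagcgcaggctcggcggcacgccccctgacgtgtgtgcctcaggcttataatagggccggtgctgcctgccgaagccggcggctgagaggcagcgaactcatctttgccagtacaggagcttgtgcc

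The OAS1 window holds 1 GAS core and no match to the ISRE core as searched. It does hold gaaacgaaa, GAAA and GAAA again with only 1 base between, a spacing that the search did not cover. OAS1 is therefore counted below as without the core by the searched spacing only. OAS3 holds 2 ISRE cores, IFI6 holds 3, and BST2 and ISG15 hold 2 each that overlap one another. In BST2 a GAS core also overlaps the first ISRE core. PARP14 and EIF2AK2 hold 1 core each. Sorted by what the genes did, the core was in 5 of the 7 genes with a window that rose, 1 of the 2 that fell, 4 of the 5 tested genes that did not pass, and 13 of the 17 whose level was too low to test. A match is a description of letters and not a shown binding site.

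**Figure D1:**
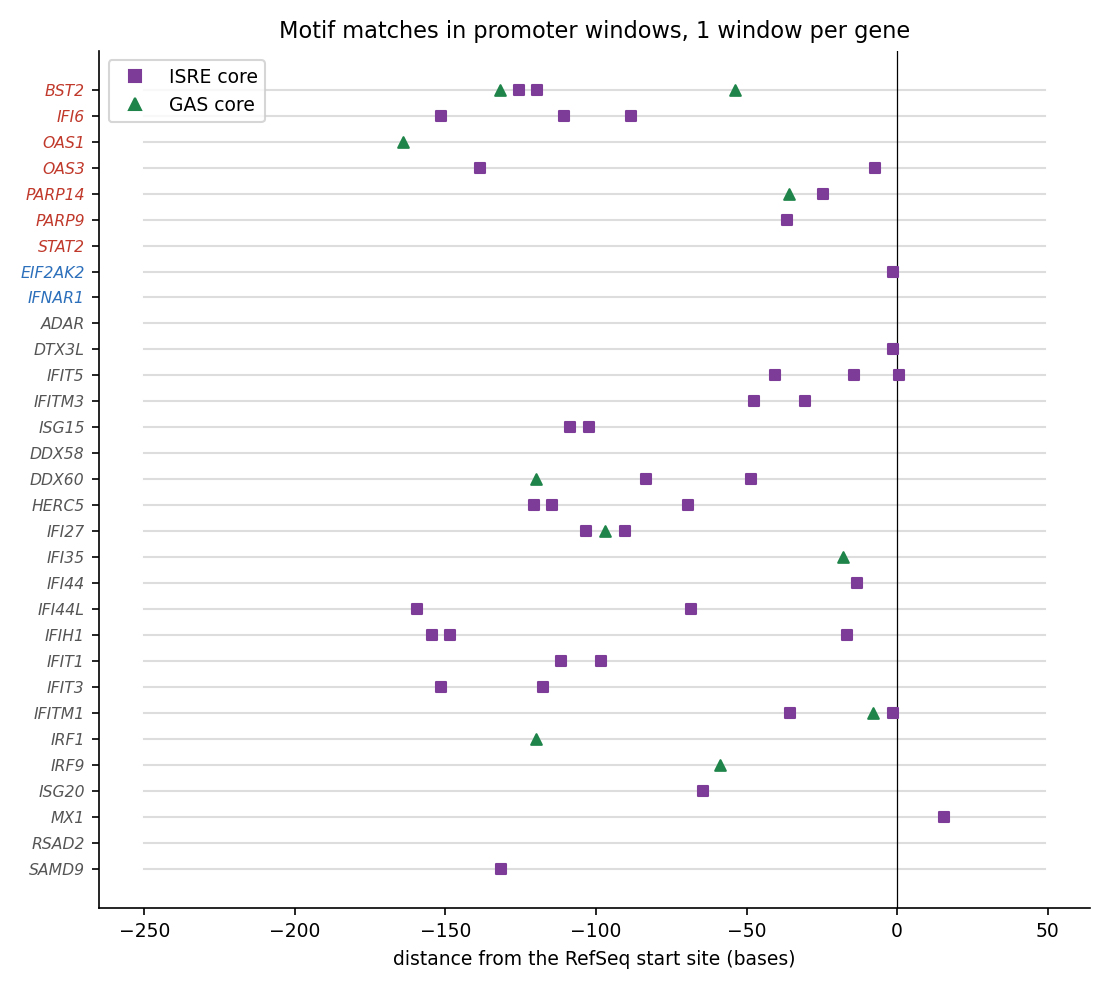
Positions of ISRE core (squares) and GAS core (triangles) matches in the promoter window of each of the 31 genes with a RefSeq window, as distance in bases from the start site. Gene names in red rose, names in blue fell and names in grey did not pass or were not tested. Where a gene has several windows the one with the lowest coordinate is drawn. Cores stand beside red, blue and grey names alike.

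Depth was 18.2 to 20.3 M fragments in shMYT1 and 21.1 to 21.7 M fragments in shNC, recovered from FPKM (fragments per kilobase of exon, scaled to library depth) and exon length, so the shMYT1 libraries were shallower. MYT1 itself measured 4.20, 4.13 and 4.36 FPKM in shMYT1 and 5.73, 5.12 and 5.18 FPKM in shNC, and fell by 0.28 on the log2 scale (SE 0.05, limma adjusted p = 0.0102). Neuroblastoma markers were present in every library, with 10 of 10 listed genes tested (4 up, 2 down) and summed levels of 1176 to 1223 FPKM in shMYT1 and 1230 to 1347 FPKM in shNC. Summed levels of markers of other cell types differed between the groups. The 6 of 12 leukocyte markers with a row summed to 1.07 to 1.43 FPKM in shMYT1 and 0.529 to 0.893 FPKM in shNC, none reached the level for testing, and the pan-leukocyte gene PTPRC averaged 0.0514 FPKM in shMYT1 and 0.0641 FPKM in shNC, while CD14 averaged 0.975 FPKM in shMYT1 and 0.393 FPKM in shNC and passed when no filter on low values was used (limma adjusted p = 0.0441). Listed fibroblast markers (10 of 10 with a row) summed to 121 to 124 FPKM in shMYT1 and 166 to 170 FPKM in shNC. Most of that difference lay in LUM, at 54.6 FPKM in shMYT1 and 97.7 FPKM in shNC. Of the 8 tested, 4 rose (COL3A1, PDGFRA, ACTA2 and TAGLN) and 3 fell (LUM, DCN and COL1A1). These counts, and those of the neuroblastoma markers, stand beside 11.9% higher and 12.3% lower among all tested genes (limma, adjusted p under 0.05). The 6 endothelial markers summed to 0.552 to 0.617 FPKM in shMYT1 and 0.395 to 0.442 FPKM in shNC, and the 4 of 6 Schwann or glial markers with a row to 2.55 to 3.26 FPKM in shMYT1 and 2.10 to 2.25 FPKM in shNC. Their part in the results below was not tested.

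At the level of the whole family, 9 of the 18 genes that could be tested were higher after MYT1 knockdown. Another 9 genes, MX1, MX2, IFI44L, OAS2, IFIH1, DHX58, TRIM22, HERC5 and USP18, averaged under 0.1 FPKM. Of the 41 genes, 18 averaged 1 FPKM or more across all 6 libraries and were tested (43.9%, against 67.2% of the 16624 protein-coding IDs). Of the 18, 9 rose (OAS1, BST2, IFITM2, IRF3, PARP14, IFI6, OAS3, PARP9 and STAT2), 2 fell (EIF2AK2 and IFNAR1) and 7 did not pass (limma, adjusted p under 0.05 over all genes). Among all 14106 genes tested, 11.9% rose and 12.3% fell. Of all calls 49.2% were thus higher, a share that became 36.5% when libraries were rescaled to the same FPKM total, with no call of the family changed. The groups did not overlap in 11 of the 18 genes that were higher and 3 that were lower in shMYT1, against 20.5% and 21.8% of all tested genes. The median log2 fold change of the 18 was 0.18 and that of all tested genes -0.0048. OAS1 was above 1 FPKM in shMYT1 alone and thus entered the test only through the group where it is high, so these counts do not describe all 42 genes. In bulk RNA, a different number of expressing cells and a different level per cell cannot be told apart.

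**Figure D2:**
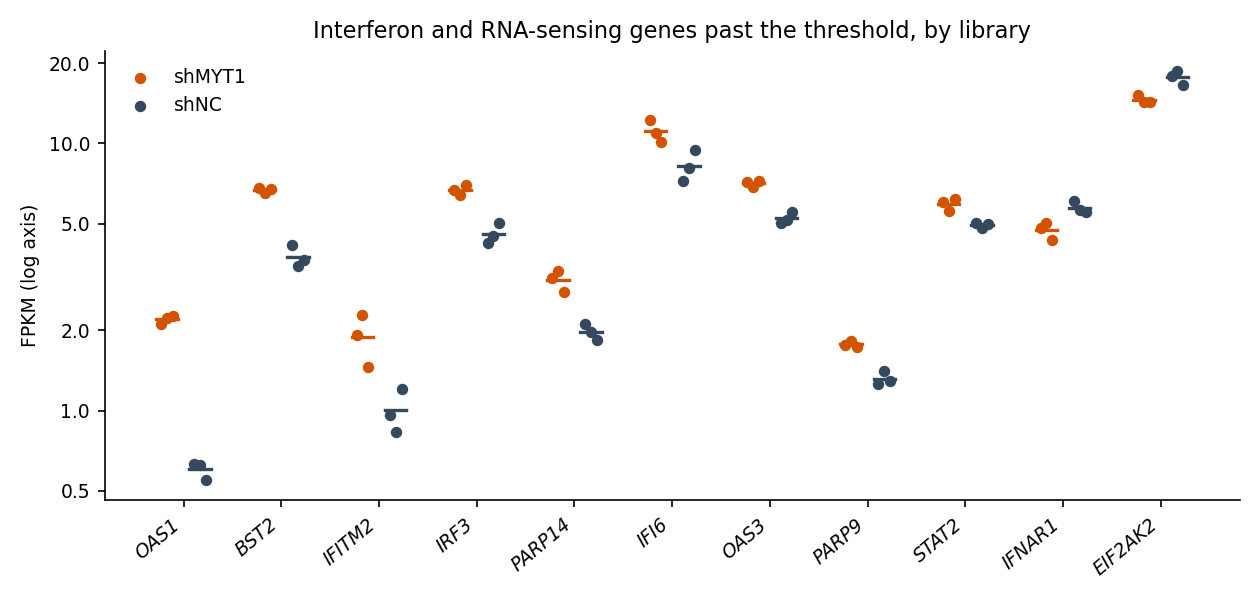
FPKM (log axis) of the 11 genes that passed the test, in each shMYT1 library (orange) and each shNC library (dark slate), 3 libraries per group, with the group mean as a bar. OAS1 lies between 2.11 and 2.25 FPKM in shMYT1 and between 0.549 and 0.631 FPKM in shNC, and EIF2AK2 and IFNAR1 are lower in all shMYT1 libraries.

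Among the interferon ligands, 1 of 22 listed genes had a row, the keratinocyte interferon gene IFNK, and the other 21 were not analysed here. IFNK was listed at 0 in 2 of 3 shMYT1 libraries and 2 of 3 shNC libraries and reached 0.132 FPKM in shMYT1 and 0.0817 FPKM in shNC. The level of 3 fragments on 1 kb of exon is 0.150 to 0.170 FPKM in shMYT1 and 0.140 to 0.143 FPKM in shNC, so IFNK, with at most 3 fragments in a library, was at the limit of what this depth can show. Such limits cover counting error only.

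Of the 8 receptor and signalling genes, 5 were tested, of which 2 rose and 1 fell. IFNAR1 (chromosome 21, 33324477 to 33359862, plus strand, hg38), which encodes the receptor chain that carries the kinase TYK2, had 4.81, 5.03 and 4.35 FPKM in shMYT1 and 6.07, 5.61 and 5.52 FPKM in shNC. No shMYT1 library reached the lowest shNC library, and the gene fell by 0.23 on the log2 scale (SE 0.06, limma adjusted p = 0.0303). This call was lost without shMYT1 replicate 1 or 3 or without shNC replicate 1 or 2, and with no filter on low values, with adjusted p up to 0.0922. The partner chain IFNAR2 had 1.73, 1.69 and 1.76 FPKM in shMYT1 and 1.49, 1.83 and 1.82 FPKM in shNC, overlapping groups with a 95% interval of -0.17 to 0.19 on the log2 scale. IFNAR2 shares 2038 of its 4614 exon bases with AP000295.1 on the same strand, which makes its level uncertain. No test of IFNAR1 against IFNAR2 was run.

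STAT2 (chromosome 12, 56341597 to 56360155, minus strand), the signal transducer of type I interferon, had 6.06, 5.57 and 6.17 FPKM in shMYT1 and 5.02, 4.80 and 4.996 FPKM in shNC. It rose by 0.22 on the log2 scale (SE 0.05, limma adjusted p = 0.0164), a call that was lost without shMYT1 replicate 1, shMYT1 replicate 3 or shNC replicate 2 (adjusted p up to 0.0617). Its DNA-binding partner IRF9 was under the level for testing, at 0.657 ± 0.105 FPKM in shMYT1 and 0.545 ± 0.130 FPKM in shNC (SD, n = 3 each), and IRF1, a transcription factor induced by interferon, was at 0.634 ± 0.0435 FPKM in shMYT1 and 0.621 ± 0.0361 FPKM in shNC. For both the groups overlapped. USP18, the protease that strips ISG15 from proteins and restrains IFNAR2, was at 0.0471 to 0.238 FPKM in shMYT1 and 0 to 0.0656 FPKM in shNC, from 2 to 9 fragments in shMYT1 and 0 to 3 in shNC.

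IRF3 (chromosome 19, 49659569 to 49665875, minus strand), the factor that sensors activate, had 6.71, 6.39 and 6.96 FPKM in shMYT1 and 4.22, 4.51 and 5.05 FPKM in shNC. The groups did not overlap, and it rose by 0.46 on the log2 scale (SE 0.06, limma adjusted p = 0.00333). The median log2 fold change of its 50 neighbouring tested genes was 0.32, and of the nearest tested genes SCAF1 rose by 0.33, BCL2L12 by 0.63 and PRMT1 by 0.35 (the calls of SCAF1 and PRMT1 were lost with the regional median removed), while RRAS did not pass (limma adjusted p = 0.108). With the regional median removed, IRF3 was at 0.14 and no longer passed (limma adjusted p = 0.0766). IRF3 also shares 734 of 3794 exon bases with BCL2L12, which runs the other way. The sources used here do not say whether counting used strand, so fragments there cannot be assigned. IRF7, the interferon-inducible relative, had 1.96, 1.87 and 3.19 FPKM in shMYT1 and 2.45, 2.32 and 2.03 FPKM in shNC. Its shMYT1 libraries 1 and 2 lay below every shNC library and replicate 3 lay above all of them.

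Of the 9 RNA sensors with a row, 4 were tested, of which 2 rose, 1 fell and 1 did not pass. OAS1 (chromosome 12, 112906777 to 112933222, plus strand), an oligoadenylate synthetase that activates RNase L, had 2.11, 2.22 and 2.25 FPKM in shMYT1 and 0.631, 0.626 and 0.549 FPKM in shNC, from 194 to 208 fragments in shMYT1 and 57 to 67 in shNC. The ratio of the means was 3.64, the highest among the tested genes of the family, a set that OAS1 entered only through its shMYT1 level. Of the untested genes USP18 had a higher ratio, 4.03, from at most 9 fragments in a library. The log2 fold change of OAS1 on FPKM + 1 was 0.99 (SE 0.07, limma adjusted p = 0.000394, or 0.00193 without the filter on low values). OAS3 (chromosome 12, 112938352 to 112973249, plus strand), the long synthetase next to it, had 7.20, 6.88 and 7.25 FPKM in shMYT1 and 5.02, 5.18 and 5.53 FPKM in shNC, and rose by 0.38 (SE 0.04, limma adjusted p = 0.00192). OAS2, 5.15 kb further along, was at 0 to 0.0320 FPKM in shMYT1 and 0 to 0.0152 FPKM in shNC, at most 4 fragments in any library.

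A gene beside the synthetases rose too. RPH3A (chromosome 12, 112570380 to 112898881, plus strand), which encodes the synaptic vesicle protein rabphilin and ends 7.90 kb before OAS1, had 3.21, 3.19 and 3.40 FPKM in shMYT1 and 1.35, 1.24 and 1.23 FPKM in shNC (log2 fold change 0.91, limma adjusted p = 0.000236). On the other side the ubiquitin ligase gene DTX1, 83.5 kb past OAS3, rose by 0.26, a call lost in 7 of 15 alternatives (adjusted p up to 0.0964), and the helicase gene DDX54 rose by 0.23. PTPN11, the next tested gene before RPH3A, did not pass (log2 fold change -0.03, limma adjusted p = 0.550). The median over the 50 tested genes around OAS1 was -0.012. These neighbours were examined after the values of OAS1 were seen, and OAS1 shares 92 of 4947 exon bases with the antisense gene AC004551.1, which had no row and was not analysed here.

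**Figure D3:**
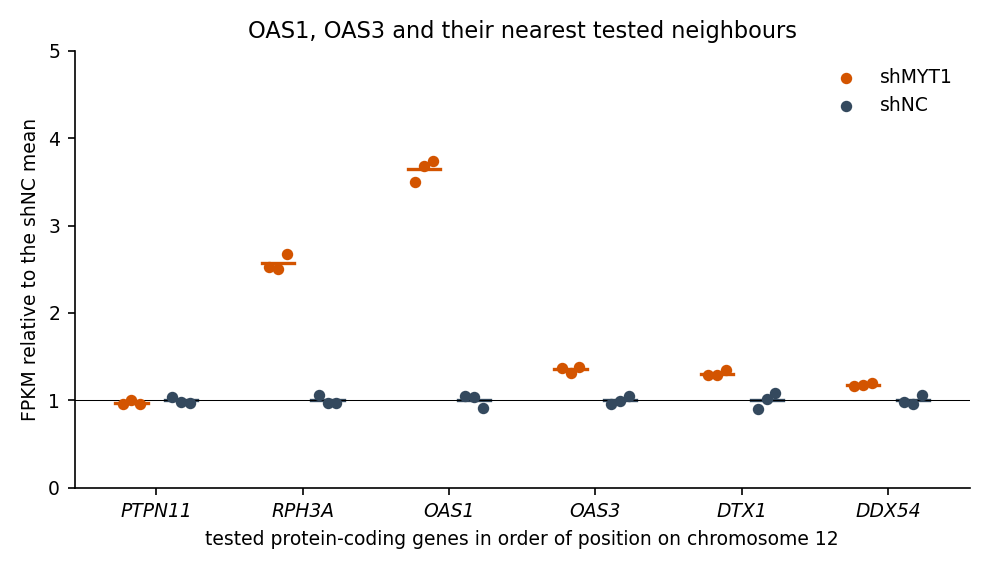
FPKM of OAS1, OAS3 and the nearest tested protein-coding genes on chromosome 12 in order of position, divided by the shNC mean of the gene, for each shMYT1 library (orange) and shNC library (dark slate), with group means as bars. RPH3A and OAS1 stand highest in shMYT1, OAS3, DTX1 and DDX54 lie above 1, and PTPN11 overlaps between the groups.

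EIF2AK2 (chromosome 2, 37099210 to 37157065, minus strand), which encodes PKR, the kinase that halts translation when it binds double-stranded RNA, went the other way. It had 15.2, 14.3 and 14.3 FPKM in shMYT1 and 17.8, 18.6 and 16.6 FPKM in shNC, from 2710 to 3259 fragments in shMYT1 and 3744 to 4207 in shNC. It fell by 0.26 on the log2 scale (SE 0.05, limma adjusted p = 0.0108), and the groups did not overlap. The call held in all 16 alternatives, and the median of its 50 neighbouring genes was -0.019. Its exons share 436 of 10753 bases with genes on the opposite strand.

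ADAR, which edits adenosine to inosine in double-stranded RNA and thereby hides cellular RNA from the sensors, was the most abundant gene of the family, at 56.3, 56.3 and 57.4 FPKM in shMYT1 and 53.8, 52.0 and 54.0 FPKM in shNC. The groups did not overlap but the difference was 0.09 on the log2 scale with a 95% interval of 0.02 to 0.15 (limma adjusted p = 0.0548), and its 50 neighbouring genes had a median of 0.08. It passed with voom on recovered fragments (limma adjusted p = 0.0254) and with the replicate number as a block (limma adjusted p = 0.0491). The FPKM of ADAR did not give whole fragments with the exon length used, so its fragments in the voom fit are approximate. With the regional median removed the difference was 0.010 (limma adjusted p = 0.796).

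The 3 genes of the RIG-I family averaged under 1 FPKM, 2 of them at no more than 5 fragments in any library. DDX58, which encodes RIG-I, had 0.485 ± 0.113 FPKM in shMYT1 and 0.366 ± 0.122 FPKM in shNC (SD, n = 3 each), from 34 to 47 fragments in shMYT1 and 25 to 46 in shNC, and the groups overlapped. IFIH1, the sensor of long double-stranded RNA, was listed at 0 in all 3 shMYT1 libraries and at 0, 0.0210 and 0.0316 FPKM in shNC. DHX58, the third family member, was at 0 to 0.0736 FPKM in shMYT1 and 0.0242 to 0.0248 FPKM in shNC. DDX60, a helicase linked to RIG-I signalling, was at 0.336 ± 0.0384 FPKM in shMYT1 and 0.460 ± 0.0937 FPKM in shNC (SD, n = 3 each), and the groups overlapped. At this depth a difference in IFIH1 or DHX58 was not detectable.

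Of 19 antiviral effectors, 5 were tested and 14 averaged under 1 FPKM. BST2, IFI6 and IFITM2 rose, and IFIT5 and IFITM3 did not pass. The 19 summed to 38.0 to 39.7 FPKM in shMYT1 and 32.4 to 33.3 FPKM in shNC. BST2 (chromosome 19, 17402939 to 17405648, minus strand), which encodes tetherin and holds budding virions at the cell surface, had 6.81, 6.52 and 6.74 FPKM in shMYT1 and 4.16, 3.49 and 3.67 FPKM in shNC. It rose by 0.69 on the log2 scale (SE 0.06, limma adjusted p = 0.000614), while its 50 neighbouring genes had a median of -0.10. MVB12A, 0.074 kb away, did not pass (-0.12), and GTPBP3, 60.2 kb away, fell by 0.21, a call lost with the regional median removed. IFI6 (chromosome 1, 27666061 to 27672218, minus strand), an anti-apoptotic mitochondrial protein gene, had 12.2, 10.9 and 10.2 FPKM in shMYT1 and 7.21, 8.10 and 9.48 FPKM in shNC, and rose by 0.39 (SE 0.10, limma adjusted p = 0.0330). Its lowest shMYT1 library lay close above the highest shNC library, and the call was lost without shMYT1 replicate 1 or 2, without shNC replicate 1 or 2, with the replicate block and without the filter on low values (adjusted p up to 0.0958).

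IFITM2 (chromosome 11, 307631 to 315272, plus strand), which blocks fusion of virus in endosomes, had 1.92, 2.27 and 1.46 FPKM in shMYT1 and 0.966, 0.834 and 1.21 FPKM in shNC, from 40 to 62 fragments in shMYT1 and 27 to 39 in shNC. It rose by 0.52 on the log2 scale (SE 0.13, limma adjusted p = 0.0284). That call was lost without shMYT1 replicate 1 or 2, without shNC replicate 1 or 2, without the filter, with the replicate block and with the regional median removed (adjusted p up to 0.0886). IFITM2 shares 351 of 1543 exon bases with IFITM1 on the same strand, and the IFITM genes are closely similar copies, so their fragments are uncertain. IFITM1 had 1 to 7 fragments in shMYT1 and 0 to 2 in shNC. IFITM3 had 5.54, 5.03 and 6.14 FPKM in shMYT1 and 5.46, 5.19 and 5.38 FPKM in shNC, overlapping groups with a 95% interval of -0.11 to 0.20 on the log2 scale.

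The IFIT genes, which bind foreign RNA ends and stand in 1 cluster on chromosome 10, did not pass the test or were too low for it. IFIT5, the member with the highest level, had 8.25, 8.89 and 9.001 FPKM in shMYT1 and 9.38, 9.92 and 9.10 FPKM in shNC, with all shMYT1 libraries lower and a log2 difference of -0.11 (95% interval -0.22 to 0.0049, limma adjusted p = 0.150). IFIT1, IFIT2 and IFIT3 averaged 0.620, 0.508 and 0.667 FPKM in shMYT1 and 0.482, 0.584 and 0.935 FPKM in shNC, and in each the groups overlapped. IFIT3 ranged over 0.533 to 0.911 FPKM in shMYT1 and 0.596 to 1.20 FPKM in shNC.

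The remaining effectors were also under 1 FPKM on average. IFI27, IFI35, IFI44, RSAD2, ISG20 and SAMD9 averaged 0.578, 0.782, 0.359, 0.349, 0.271 and 0.228 FPKM in shMYT1, against 0.699, 0.981, 0.2005, 0.441, 0.298 and 0.174 FPKM in shNC. IFI27, a mitochondrial protein gene often used as an interferon marker, had 0.483, 0.614 and 0.638 FPKM in shMYT1 and 0.786, 0.655 and 0.655 FPKM in shNC, so the groups did not overlap, but it was not tested. The dynamin-like GTPase genes MX1 and MX2 averaged 0.0698 and 0.0290 FPKM in shMYT1 and 0.0494 and 0.0206 FPKM in shNC, IFI44L 0.00714 FPKM in shMYT1 and 0.0247 FPKM in shNC, and TRIM22 0.0274 FPKM in shMYT1 and 0.0104 FPKM in shNC. Without the filter on low values none of the 23 genes under it passed, with limma adjusted p from 0.273 (IFI44) to 0.991 (DHX58), and log2(FPKM + 1) understates changes at such levels. The members nearest the filter were ISG15, OAS1 and IFITM2 just above it and IFI35, IFIT3 and IFI27 just below.

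**Figure D4:**
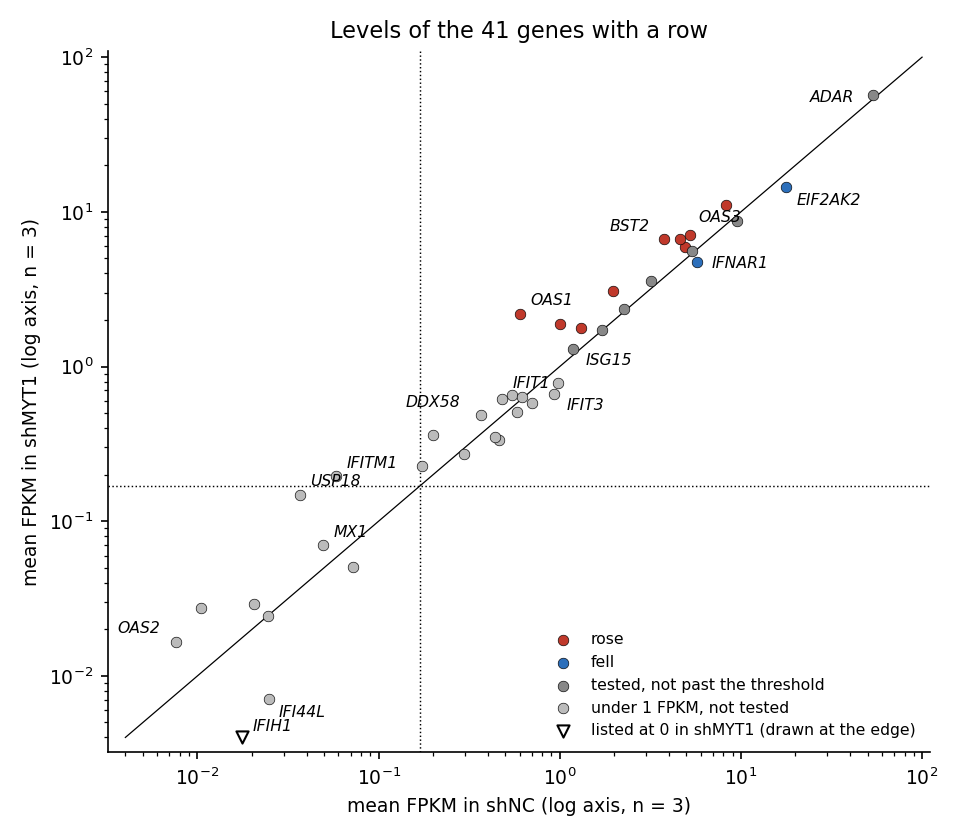
Mean FPKM in shMYT1 (vertical) against shNC (horizontal), both on log axes, of the 41 genes with a row, 3 libraries per group. The diagonal marks equal levels and dotted lines the level of 3 fragments on 1 kb of exon in the shallowest library, 0.170 FPKM. Red genes rose, blue genes fell, dark grey genes were tested and did not pass, light grey genes were too low to test, and the open triangle is IFIH1, listed at 0 in shMYT1. OAS1 lies farthest above the diagonal among the tested genes.

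Of 5 genes for ISG15 and ADP-ribosylation, 4 were tested and 2 rose, both from a cluster on chromosome 3. PARP14 (122680618 to 122730840, plus strand), a mono-ADP-ribosyltransferase, had 3.14, 3.32 and 2.78 FPKM in shMYT1 and 2.10, 1.97 and 1.84 FPKM in shNC, and rose by 0.45 on the log2 scale (SE 0.07, limma adjusted p = 0.00533). PARP9 (122527924 to 122564577, minus strand), whose product forms a complex with the ubiquitin ligase DTX3L, had 1.75, 1.82 and 1.73 FPKM in shMYT1 and 1.26, 1.40 and 1.29 FPKM in shNC. It rose by 0.26 (SE 0.07, limma adjusted p = 0.0332), a call lost when any 1 library was left out (adjusted p 0.0653 to 0.0979), with the replicate block and without the filter. DTX3L, which starts within PARP9 on the opposite strand and shares 217 exon bases with it, had 3.64, 3.46 and 3.64 FPKM in shMYT1 and 3.09, 3.17 and 3.28 FPKM in shNC. The groups did not overlap, and the difference of 0.13 did not pass (limma adjusted p = 0.0816). The 50 genes around each of the 3 had a median of -0.02, and HSPBAP1, the next tested gene past PARP14, did not pass (log2 fold change -0.07).

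ISG15, the ubiquitin-like protein that serves as a standard readout of interferon, averaged 1.30 ± 0.119 FPKM in shMYT1 and 1.19 ± 0.0416 FPKM in shNC (SD, n = 3 each). The groups overlapped, and the 95% interval of the log2 fold change was -0.11 to 0.26. HERC5, the ligase that attaches it, was at 0.0210 to 0.106 FPKM in shMYT1 and 0.0400 to 0.0901 FPKM in shNC, from 2 to 9 fragments in shMYT1 and 4 to 9 in shNC.

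**Figure D5:**
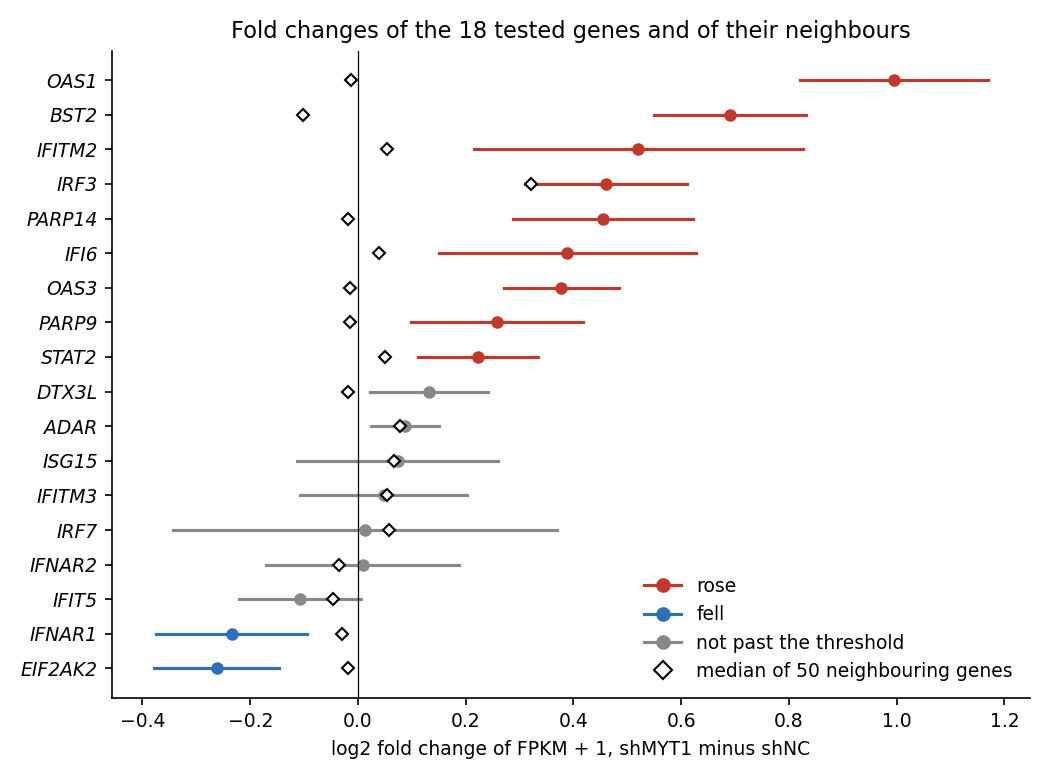
Log2 fold change of FPKM + 1 (shMYT1 minus shNC) of the 18 tested genes with 95% intervals from limma, coloured by call, and the median log2 fold change of the 50 tested genes nearest to each (open diamonds). The diamond lies inside the interval of IRF3 at 0.32 and far from OAS1, BST2 and PARP14.

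Counts in the other lists are set beside the 24.2% of all tested genes that passed in either direction. Of 14 tested genes of 20 for further receptors and JAK-STAT signalling, 2 passed, both higher: STAT3, a cytokine-activated factor, with 27.7 ± 0.528 FPKM in shMYT1 and 22.2 ± 0.379 FPKM in shNC, and its feedback inhibitor SOCS3, with 14.9 ± 0.378 FPKM in shMYT1 and 13.2 ± 0.594 FPKM in shNC (SD, n = 3 each), whose call was lost in 9 of 16 alternatives. Of 17 tested genes of 23 for RNA-sensing adaptors and kinases, 1 rose and 2 fell. ZC3HAV1, which encodes the RNA-binding protein ZAP, rose by 0.24, PRKRA, a PKR activator, fell by 0.15, and TRIM25, the ubiquitin ligase for RIG-I and a cofactor of ZAP, fell to 9.21 ± 0.162 FPKM in shMYT1, against 13.6 ± 0.183 FPKM in shNC (SD, n = 3 each), a difference of -0.52 on the log2 scale (limma adjusted p = 0.000188). The TRIM25 difference was -0.38 with the regional median removed, and PRKRA was then at -0.048 and did not pass (limma adjusted p = 0.396).

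Counts below without the filter on low values cover all listed genes with a row. In that fit 3.84% of all 32434 genes rose and 4.05% fell. Of 6 tested genes of 11 for cytosolic DNA sensing, 1 rose and 1 fell. IFI16, a nuclear DNA sensor that interferon also induces, had 28.2 ± 2.21 FPKM in shMYT1 and 19.5 ± 0.914 FPKM in shNC (SD, n = 3 each), a difference of 0.51 on the log2 scale (limma adjusted p = 0.00222), and the ribonuclease subunit gene RNASEH2A fell by 0.22, or by 0.10 without passing once the regional median was removed (limma adjusted p = 0.0672). Without the filter on low values ENPP1, whose product degrades the messenger of the DNA sensor cGAS, fell as well, with 0.199, 0.136 and 0.109 FPKM in shMYT1 and 0.696, 0.523 and 0.552 FPKM in shNC (limma adjusted p = 0.0145). Of 27 tested genes of 57 further interferon-stimulated genes, 0 rose and 2 fell by limma with adjusted p under 0.05, the scramblase gene PLSCR1 by 0.33 and the helicase gene MOV10 by 0.16. The MOV10 call was lost when any 1 library was left out and with the regional median removed. At an unadjusted p under 0.05, 3 of the 27 were higher and 3 lower, but the share of all tested genes at that level was not computed. Voom on fragments called 1 higher and 3 lower, beside 15.4% of all genes higher and 16.2% lower in that fit. Without the filter on low values 1 of the 51 with a row rose, the guanylate-binding protein gene GBP2 (limma adjusted p = 0.0479). It had 0.542 ± 0.0885 FPKM in shMYT1 and 0.234 ± 0.0427 FPKM in shNC (SD, n = 3 each). GBP2 shares 621 of 6276 exon bases with GBP7 on the same strand. The median log2 fold change of the 27 was 0.015. Of 9 tested genes of 18 for NF-kB and inflammation, 1 rose, NFKB2, with 5.74 ± 0.257 FPKM in shMYT1 and 4.46 ± 0.134 FPKM in shNC (SD, n = 3 each). Without the filter on low values the count was 3 of the 18 with a row, since the cytokine genes IL6 and IL1B also passed. IL6 had 0.557, 0.601 and 0.626 FPKM in shMYT1 and 0, 0.0921 and 0.0691 FPKM in shNC, from 22 to 23 fragments in shMYT1 and 0 to 4 in shNC (limma adjusted p = 0.00387). IL1B had 1.12, 1.44 and 0.927 FPKM in shMYT1 and 0.526, 0.477 and 0.462 FPKM in shNC (limma adjusted p = 0.0399). In both the groups did not overlap, and 474 of 2069 exon bases of IL6 are shared with genes on the opposite strand.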

How the data were processed

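Total RNA of 6 libraries was sequenced after preparation with a NEBNext Ultra RNA kit, per the labels' protocols. The values deposited by the authors are FPKM in a single table. HISAT2 2.0.5, featureCounts 1.5.0-p3 and build hg38 are named in the submitters' processing notes. What annotation, strand setting and filters were applied is not stated there. Symbols, positions and exon lengths came from GENCODE 29, in which 32301 of 32434 IDs were found. Multiplied by exon length, FPKM came in whole steps for 95.4% of these IDs (to within 0.01 in each of the 6 libraries), which gave the fragments. The median ratio to the geometric mean library was the same in all libraries (1.0039), so the values already carried such a scaling and were used as deposited.

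The 14106 genes averaging 1 FPKM or more were tested, two-sided, on log2(FPKM + 1) in limma 3.58.1 under R 4.3.3, letting the prior variance follow the mean level. Benjamini-Hochberg adjustment covered all of them, and 0.05 was the threshold. Each fold change is shMYT1 minus shNC on this scale; for genes near 0 it comes out too small. The fit was tested on simulated data. The genes and lists were chosen with earlier results of these data known. All members are accounted for; per-library values are given for those past the threshold and the 6 most abundant tested ones that were not, and up to 4 passing genes per further list are named. Neighbouring genes, and the genes named for passing only without the filter (IL6, IL1B, GBP2, ENPP1 and CD14), were chosen after values were seen. Replicates differed by more than counting noise (chi-square per gene 2.09 to 3.41). Alternatives varied the pseudocount, filter, scaling, variance trend, replicate block and library set, used voom on fragments, or removed the running median of 50 neighbouring genes.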

Additional observations from a re-analysis of the deposited data

How the results depend on the processing

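Of the genes past the threshold, OAS1, OAS3, BST2, PARP14 and EIF2AK2 passed under every alternative in which they were tested, and no gene past the threshold changed direction. The family's calls numbered 9 higher and 2 lower; they were 6 and 1 without the filter, where 7.89% of all genes passed, 5 and 2 at a minimum of 5 FPKM, where 10 of the genes remain and 33.2% of all genes passed, and 10 and 2 with voom, where 31.7% passed. With all 14106 genes as first tested, 24.2% passed. Leaving out 1 library gave 5 to 8 higher and 1 to 2 lower, and among all genes 1025 to 1589 higher (1683 with all libraries) and 1013 to 1459 lower (1737). Those fits have fewer samples. The family's median log2 fold change was 0.21 with a pseudocount of 0.1 and 0.22 with voom. Rescaling to the same FPKM total gave 36.5% of calls as higher among all genes (49.2% as deposited) and a median over all genes of -0.035, with no family call changed. Of genes that did not pass, IFNAR2 turned to -0.014 on rescaling and lay between -0.051 and 0.039 with 1 library left out, IFITM3 turned to -0.00656 with the regional median removed and lay between -0.014 and 0.11 with 1 library left out, and IRF7 turned to -0.012 on rescaling and -0.043 with the regional median removed and lay between -0.16 and 0.11 with 1 library left out. The cause was not tested. Requiring C and T after the ISRE core left 51.6% of the 31 genes with a match, against 0.322% of all genes. MYT1, below 5 FPKM, has no value under that minimum.

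Deviations from the group means correlated at 0.0127 to 0.0426 between same-numbered libraries of the groups, and at -0.0390 to 0.00826 between differently numbered ones. Each library thus correlated best with its own number, as a hint from the data only. With the replicate number as a block, 7 of the genes were called higher and 2 lower, without IFI6, IFITM2 and PARP9 and with ADAR. In that fit 11.7% of all tested genes were called higher and 12.3% lower. The 23 genes under 1 FPKM were left out by the filter, and their fragments per library ran between 0 and 105, so depth limits the lowest of them most.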
